A study of Homo sapiens with 6 samples.

Results

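The genes described are fibronectin (FN1), the collagen receptor MRC2 and 5 genes of the plasminogen activator system: PLAU, PLAT, PLAUR, SERPINE2 and SERPINB2. They are 7 of the 58735 genes in the deposited count table and were found by their symbols. They had been proposed with results of the comparison of GFI1-KO with WT cells in view, so their values in that comparison are given as a description, without a test, and nothing is supported with them.

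The study compared H1155 cells with and without GFI1 to learn how gene expression changes when this transcriptional repressor is deleted. H1155 is a human lung cancer cell line that the labels call a neuroendocrine large cell lung cancer. Poly-A RNA was sequenced from 3 libraries of wild-type (WT) cells and 3 of GFI1-KO cells, both untreated and grown in DMEM with 10% FBS. According to the methods, the GFI1-KO cells came from CRISPR/Cas9 cutting of the GFI1 promoter region and were grown as monoclonal clones. How many clones the 3 libraries represent is not given, nor do the labels say that libraries of a group came from separate cultures, so a p-value here measures the spread between these libraries, which may be technical, and an effect of the deletion and a property of the clone cannot be told apart.

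Fibronectin is a large secreted glycoprotein that cells assemble into fibrils and hold through integrins and syndecans. MRC2, also called uPARAP or Endo180, takes collagen fragments into the cell and was found in a complex with urokinase and its receptor. Urokinase (PLAU) and tissue plasminogen activator (PLAT) cut plasminogen into plasmin, a protease that digests fibrin and matrix proteins including fibronectin. PLAUR holds urokinase at the cell surface, and serpins such as SERPINE2 and SERPINB2 inactivate the activators.

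Library totals were between 14882914 and 17692882 counts. GFI1 itself, the targeted gene (chr1:92474762-92486876, GRCh38, minus strand), had 153, 106 and 125 counts in the WT libraries and 174, 188 and 170 in those carrying the GFI1-KO label. Normalized counts were 135 ± 19.9 (SD, n = 3) and 168 ± 9.28, which gave a log2 fold change of 0.31 ± 0.12 (SE, adjusted p = 0.0273, edgeR's quasi-likelihood test, Benjamini-Hochberg adjusted over 17514 genes). Thus GFI1 RNA was not lower under the GFI1-KO label, so its counts do not check the labels, and the directions below follow the labels. For the knockout the paper shows an immunoblot of GFI1 protein. The guides targeted the promoter region, so counts over the gene do not show the deletion itself. Why the RNA was not lower was not tested. The call was lost without WT replicate 2 (0.21, adjusted p = 0.147), WT replicate 3 (0.28, adjusted p = 0.0633) or GFI1-KO replicate 2 (0.27, adjusted p = 0.0927) in the same edgeR test, and after correcting each library for GC content and gene length the value was -0.02 (adjusted p = 0.919). Of 9 neuroendocrine markers, 5 were higher (55.6%) and 4 lower (44.4%) in GFI1-KO, beside 36.5% and 35.9% of all tested genes. Single markers moved far in both directions. SYP rose from 4221 ± 55.5 to 9759 ± 217 normalized counts (log2 fold change 1.21), and DDC fell from 237 ± 23.3 to 24.6 ± 11.6 (-3.26). The summed FPKM of the 9 markers (counts scaled by gene length in kilobases and by library total) was 477 to 482 in WT and 508 to 513 in GFI1-KO. With the GC correction 3 were called higher and 5 lower.

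The promoter windows of RefSeq (GRCh38.p14), which cover the 250 bases before a gene's start, were available for 5 of the 7 genes. MRC2 and PLAT have no entry. The stretches below are shown because they hold the longer sequence matches, which are in capitals. Those of FN1, SERPINE2 and SERPINB2 lie outside annotated exons, whereas the PLAUR window has no base outside them. The letters searched on both strands were AATC, the core of the GFI1 binding site, its longer form AATCAC, which contains AATC, the AP-1 site TGACTCA and TATAAA. The cAMP response element TGACGTCA was added after the sequences had been seen.
FN1, chr2:215436173-215436252, minus strand: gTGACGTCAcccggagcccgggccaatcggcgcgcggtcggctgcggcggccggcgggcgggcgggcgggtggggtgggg
PLAUR, chr19:43670337-43670366, minus strand: tcacaactccaTGAGTCAgggccgagccag
SERPINE2, chr2:224031479-224031728, minus strand: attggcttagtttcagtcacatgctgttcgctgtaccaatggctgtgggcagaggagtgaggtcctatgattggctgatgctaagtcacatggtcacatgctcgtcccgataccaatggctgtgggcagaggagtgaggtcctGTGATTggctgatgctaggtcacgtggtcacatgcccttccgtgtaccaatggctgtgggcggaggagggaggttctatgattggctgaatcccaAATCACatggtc
SERPINB2, chr18:63887455-63887704, plus strand: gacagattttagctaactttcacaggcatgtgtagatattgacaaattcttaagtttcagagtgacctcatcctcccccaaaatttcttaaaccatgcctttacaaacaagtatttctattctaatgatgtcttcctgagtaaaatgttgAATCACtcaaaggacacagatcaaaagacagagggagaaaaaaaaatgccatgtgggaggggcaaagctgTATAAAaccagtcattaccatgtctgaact

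In FN1 the capitals mark the cAMP response element, which reads the same on both strands and begins 183 bases before the start. Of 35116 promoter windows of 250 bases, 1.65% hold it. In PLAUR the capitals mark the AP-1 site on the opposite strand, 186 bases before the start, and 4.20% of windows hold that site. The RefSeq starts of the 5 genes lie inside the spans of the deposited genes. The SERPINE2 window shown holds AATCAC at 107 bases (opposite strand) and 12 bases before that start. A second SERPINE2 window, which lies nearer the 5′ end of the deposited gene, held none of the motifs. The window shown also repeats itself, since bases 77 apart were equal at 73.4% of 173 compared positions, against a median of 25.0% at the other distances tried. SERPINB2 holds AATCAC at 100 bases and TATAAA at 30 bases before its start, motifs found in 9.02% and 10.72% of all windows. The core AATC was present in 64.79% of windows and in at least 1 window of each of the 5 genes, while the PLAU windows held none of the longer motifs. These matches are letters in a window and say nothing about a factor's binding.

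By FPKM, FN1 and MRC2 were the most abundant of the 7 genes in both groups, and they were far higher in GFI1-KO. FN1 went from 8.16 to 39.4 FPKM, MRC2 from 3.24 to 26.8 FPKM and urokinase from 0.846 to 5.20 FPKM. Tissue plasminogen activator, the urokinase receptor and SERPINE2 differed less, between 1.32-fold and 1.80-fold. SERPINB2 had no counts in any WT library and a few in each GFI1-KO library. For all 7 genes every GFI1-KO library was above every WT library in normalized counts, a state that 37.5% of the 17514 tested genes share. The genes were chosen from this contrast, so nothing is read from that count.

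**Figure D1:**
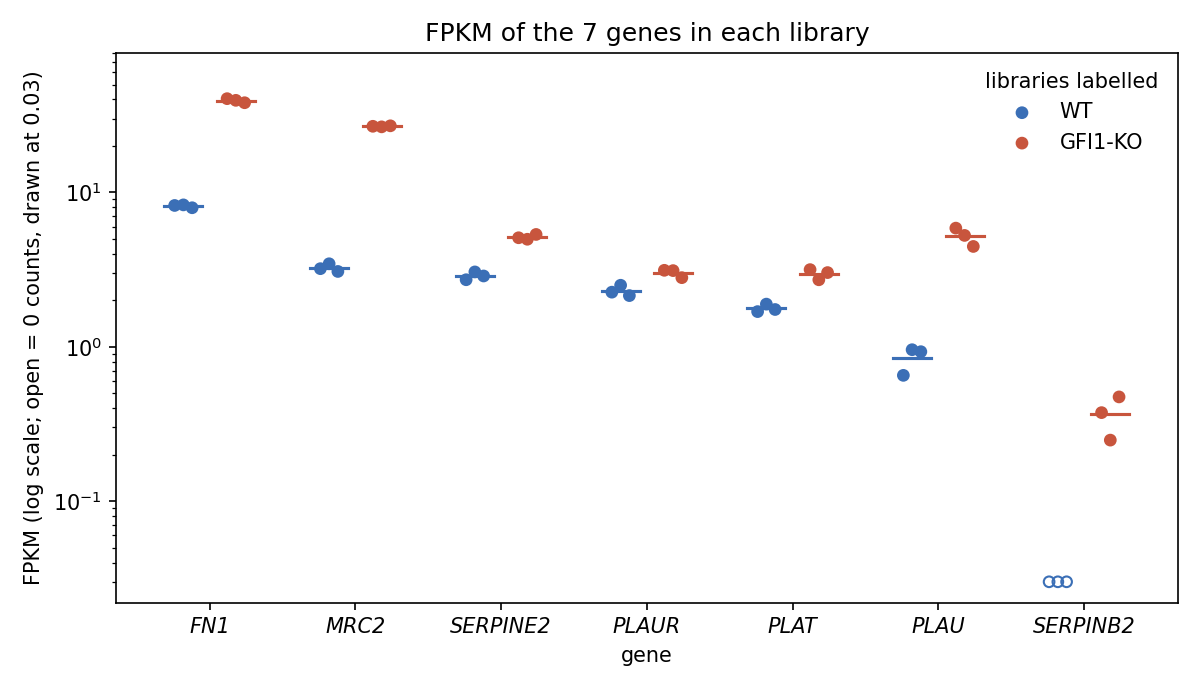
FPKM (log axis) of the 7 genes in each library, with WT libraries in blue, GFI1-KO libraries in red and a bar at each group's mean. Open circles drawn at 0.03 stand for the WT libraries in which SERPINB2 had 0 counts. The gap between the groups is widest for MRC2 among genes with counts in both, and narrowest for PLAUR.

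FN1 (ENSG00000115414, chr2:215360440-215436172, GRCh38, minus strand) encodes the fibronectin subunit. The WT libraries had 2294, 2139 and 2161 counts, and the GFI1-KO libraries 12268, 12022 and 11671. All 3 GFI1-KO libraries lay far above the WT libraries, and the libraries of a group were close to each other. Normalized counts were 2328 ± 52.9 (SD, n = 3) in WT and 11355 ± 354 in GFI1-KO, which is 4.88-fold higher. FN1 reads were 0.0141% of all counts in WT and 0.0681% in GFI1-KO. Among the tested protein-coding genes, FN1 stood above 57.7% by mean FPKM in WT and above 92.5% in GFI1-KO. The log2 fold change was 2.29, within 2.26 to 2.31 when any 1 library was left out, and 1.44% of tested genes had a higher one.

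MRC2 (ENSG00000011028, chr17:62627401-62693597, plus strand) is a member of the mannose receptor family that binds collagen. It had 354, 352 and 331 counts in WT and 3219, 3207 and 3277 in GFI1-KO. Here too the groups were far apart, and the coefficient of variation in GFI1-KO was 0.742%. Normalized counts were 367 ± 21.4 in WT and 3063 ± 22.7 in GFI1-KO, 8.36-fold higher, with a log2 fold change of 3.06. By mean FPKM, MRC2 stood above 34.1% of the tested protein-coding genes in WT and above 87.4% in GFI1-KO. AC080038.1 overlaps the start of the MRC2 span and AC080038.3 lies within it, both annotated on the opposite strand. In that order they had 0, 1 and 0 counts and 2, 0 and 2 counts in WT. In GFI1-KO they had 28, 19 and 16 counts and 19, 14 and 31 counts. The strand setting of the counting is not given in the sources used here, so reads from bases that MRC2 shares with these genes cannot be told apart. Of the 50-base words of MRC2 transcripts, 6.70% occur in AC080038.3, the only other gene found to hold any.

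PLAU (ENSG00000122861, chr10:73909177-73917497, plus strand) encodes urokinase. It was the less abundant activator in WT, with 31, 42 and 43 counts, and had 303, 273 and 233 counts in GFI1-KO. The lowest GFI1-KO library was well above the highest WT library, although the libraries of a group varied more than for FN1 (coefficient of variation 19.8% in WT and 13.6% in GFI1-KO). Normalized counts were 41.1 ± 8.15 in WT and 256 ± 34.8 in GFI1-KO. The fold was 6.21 and the log2 fold change 2.64, within 2.47 to 2.74 when 1 library was left out. The opposite strand of PLAU carries C10orf55, which shares 20.7% of the 50-base words of PLAU transcripts and had at most 3 counts in any library, so the PLAU counts are uncertain to that extent.

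PLAT (ENSG00000104368, chr8:42175233-42207724, minus strand) encodes tissue plasminogen activator. The counts were 180, 186 and 181 in WT and 366, 316 and 354 in GFI1-KO. Normalized counts were 193 ± 11.2 and 327 ± 25.2, which is 1.69-fold higher in GFI1-KO. The groups did not overlap, but 16.3% of tested genes had a higher log2 fold change than the 0.76 of PLAT.

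The balance between the activators differed between the groups. Their summed FPKM was 2.62 ± 0.256 in WT and 8.16 ± 0.787 in GFI1-KO. Of that sum, PLAU made up 27.9%, 33.6% and 34.8% in the WT libraries and 65.0%, 66.0% and 59.6% in the GFI1-KO libraries. Thus by FPKM PLAT was the more abundant activator RNA in every WT library and PLAU in every GFI1-KO library. That switch rests on the deposited gene lengths, 6618 bases for PLAT and 2950 for PLAU. In counts not divided by length, PLAT was above PLAU in every library. The GFI1-KO libraries had 366, 316 and 354 counts of PLAT and 303, 273 and 233 of PLAU.

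**Figure D2:**
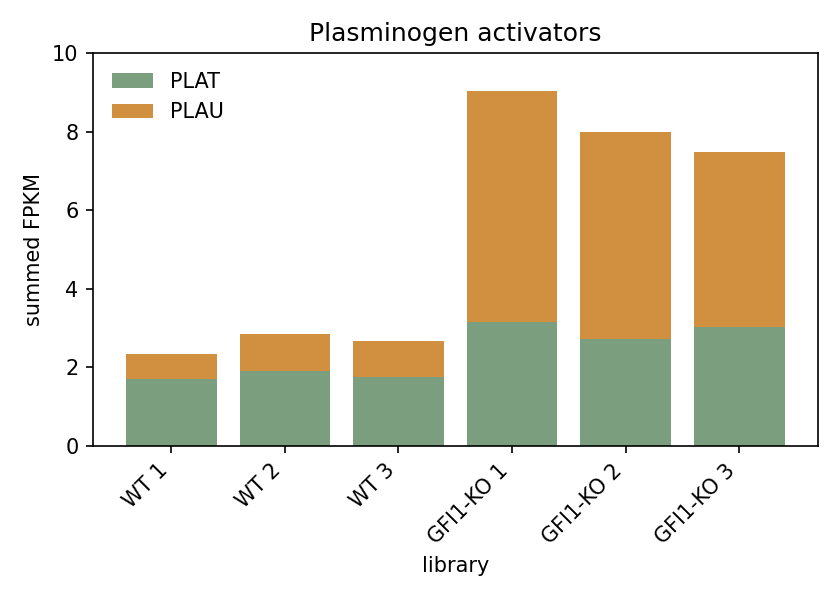
FPKM of the plasminogen activators PLAT and PLAU, stacked, in each library. The bars reach 2.34 to 2.85 in WT and 7.49 to 9.03 in GFI1-KO, with PLAU as the larger segment in the GFI1-KO libraries and PLAT in the WT libraries.

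PLAUR (ENSG00000011422, chr19:43646095-43670547, minus strand), which encodes the urokinase receptor, differed least. It had 162, 166 and 150 counts in WT and 244, 244 and 221 in GFI1-KO. Normalized counts were 169 ± 13.4 in WT and 224 ± 13.8 in GFI1-KO, 1.32-fold higher, and the groups did not overlap. The log2 fold change of 0.41 became 0.08 once GC content and length were corrected. The difference in the receptor was thus small beside that in its ligand, and the ratio of PLAU to PLAUR FPKM was 0.368 ± 0.073 in WT and 1.72 ± 0.144 in GFI1-KO.

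SERPINE2 (ENSG00000135919, chr2:223975112-224039319, minus strand) encodes protease nexin-1, which inhibits urokinase, tissue plasminogen activator and thrombin. The counts were 389, 404 and 401 in WT and 791, 777 and 840 in GFI1-KO. Normalized counts were 422 ± 24.5 and 760.2 ± 27.7, and no GFI1-KO library came near the WT libraries. The fold was 1.80 and the log2 fold change 0.85, within 0.80 to 0.89 when 1 library was left out.

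SERPINB2 (ENSG00000197632, chr18:63871692-63903890, plus strand) encodes plasminogen activator inhibitor 2. It had 0 counts in each WT library and 18, 12 and 23 in the GFI1-KO libraries, and passed the filter on low counts only through the latter. A library with 0 counts allows up to 3, or 3.18 normalized counts on average, so the GFI1-KO mean of 16.7 ± 5.15 was at least 5.26-fold higher. This limit covers counting error only. The level in GFI1-KO was low, at 0.365 ± 0.113 FPKM, above 8.17% of the tested protein-coding genes. Of the 50-base words of SERPINB2 transcripts, 18.3% occur in another gene of the same strand in GENCODE (ENSG00000289724), so its counts are uncertain to that extent. SERPINB10, which overlaps SERPINB2 on the same strand, had 0 counts in all 6 libraries, and 11.9% of its own 50-base words occur in other genes.

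By FPKM, the order in WT was FN1, MRC2, SERPINE2, PLAUR, PLAT, PLAU and SERPINB2. Neighbours in that order did not overlap between libraries, although the lowest MRC2 library (3.07) was next to the highest SERPINE2 library (3.05). SERPINE2 had more counts than MRC2 in every WT library (389, 404 and 401 against 354, 352 and 331). Its lower FPKM came with a longer deposited gene length, 8891 bases against 6860. Any order of genes by FPKM depends on these lengths. In GFI1-KO the order was FN1, MRC2, PLAU, SERPINE2, PLAUR, PLAT and SERPINB2. There PLAU (4.46 to 5.87 FPKM) overlapped SERPINE2 (4.97 to 5.34), and PLAUR (2.80 to 3.13) overlapped PLAT (2.72 to 3.16).

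GC content of transcripts moved with the differences over the whole table. Spearman's rho between the log2 fold change and GC content was 0.587 over the 17415 tested genes with a GC value, which share the same 6 libraries. Genes within 1 percentage point of the GC content of MRC2 (63.1%) had a median log2 fold change of 0.70, and those around PLAUR (55.7%) of 0.37. Around FN1 (49.3%) it was 0.03 and around SERPINE2 (45.8%) it was -0.17. With GC content and length corrected, the log2 fold change was 2.36 for FN1, 2.47 for MRC2, 2.34 for PLAU, 0.61 for PLAT and 1.08 for SERPINE2. MRC2 was therefore no longer far above FN1, while SERPINE2 moved up and PLAUR lay close to 0. How much of each difference comes with GC content was not tested beyond these values.

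**Figure D3:**
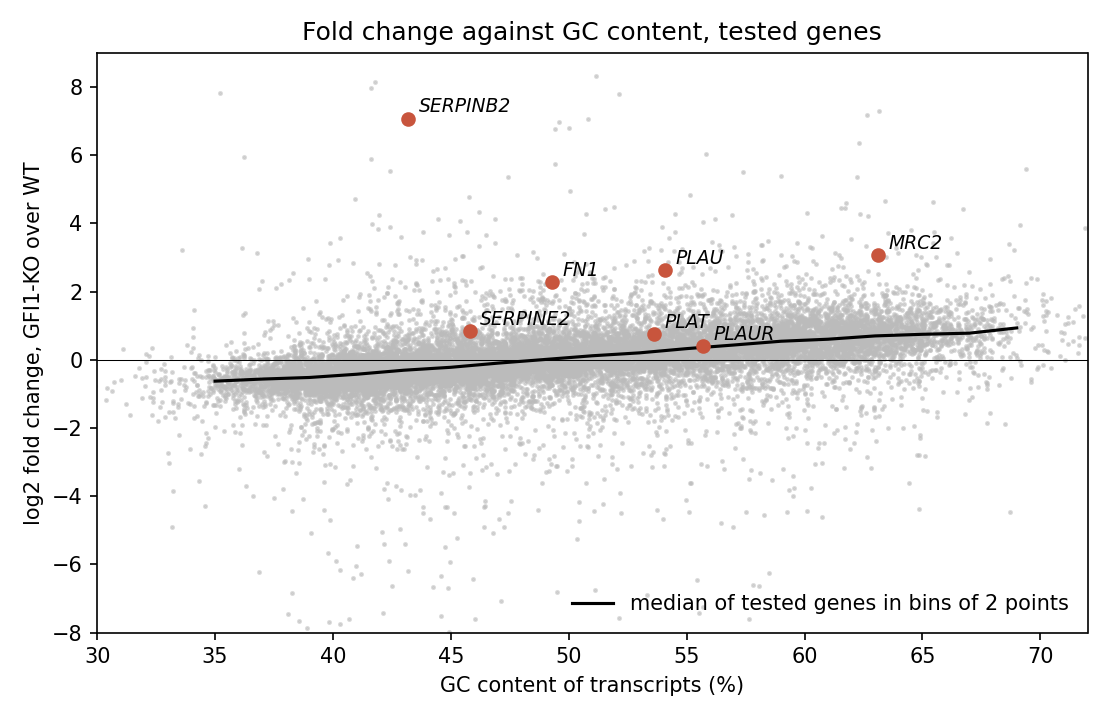
Log2 fold change (GFI1-KO over WT) against the GC content of transcripts for the tested genes (grey), their median in bins of 2 percentage points (line) and the 7 genes (red). Genes beyond the axes are not drawn, and the value of SERPINB2 depends on the prior count because WT had 0 counts. PLAUR lies on the median line and FN1, PLAU and MRC2 well above it.

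**Figure D4:**
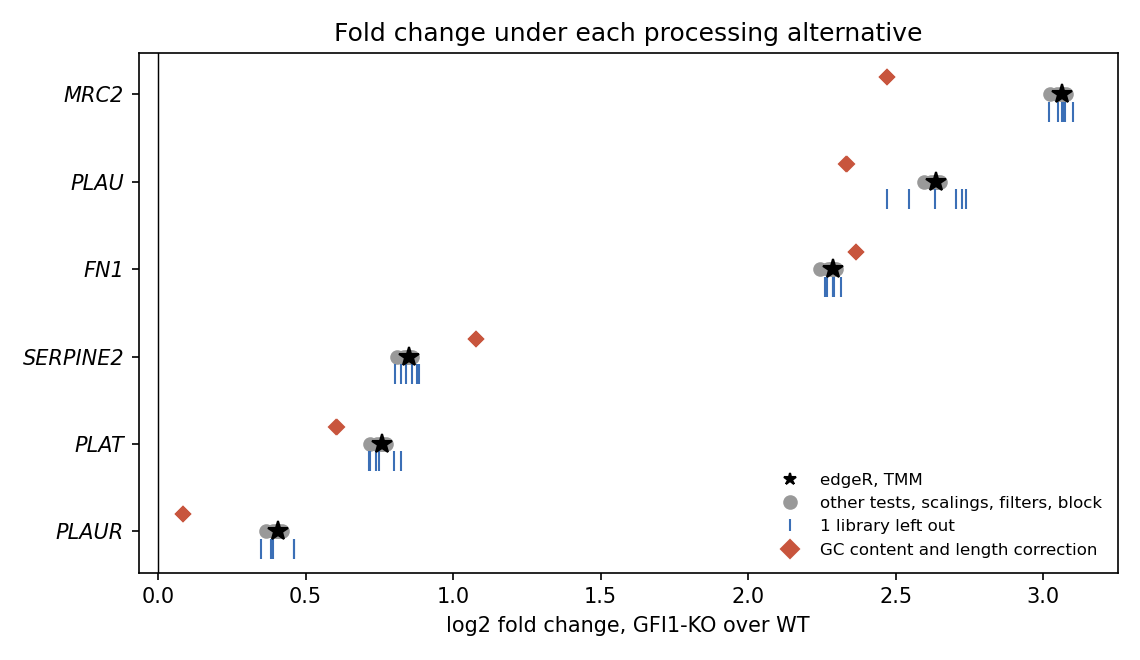
Log2 fold change (GFI1-KO over WT) of 6 of the genes under each way of processing, with the reported value as a star. The vertical ticks are fits without 1 library, the grey circles other tests, scalings, filters and the replicate block, and the red diamonds the correction for GC content and length. The diamonds stand farthest from the stars for MRC2, PLAUR, PLAU and SERPINE2, and the ticks spread most for PLAU.

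A list of 29 further genes of the plasminogen system was read beside the 7 genes. Of these, 19 passed the filter, with 7 higher and 4 lower in GFI1-KO and 8 not called. The list's median log2 fold change was 0.13. Over all tested genes 72.4% were called, 36.5% higher and 35.9% lower, with a median below 0.01. Plasminogen itself (PLG) had at most 2 counts in any library, with 11.4% of its 50-base words in other genes, so its RNA was near or below what this depth can show. Among its surface receptors, S100A10 rose from 532 ± 12.1 to 1533 ± 97.2 normalized counts (log2 fold change 1.53, adjusted p = 2.23e-18, edgeR) and its partner ANXA2 from 3636 ± 97.5 to 7018 ± 151 (0.95, adjusted p = 9.32e-19, edgeR). The glycolytic enzyme ENO1, which also binds plasminogen, was called higher at 0.15 but stood at -0.03 (adjusted p = 0.405) after the edgeR test with GC correction. PLGRKT was called lower at -0.17 (adjusted p = 0.0454, edgeR), a call that DESeq2 (adjusted p = 0.185), 4 of the 6 fits without 1 library and other alternatives did not make.

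Of the 5 tested inhibitors of activators or plasmin in the list, 1 was higher and 1 lower. A2M, a broad protease trap, was higher at low level, from 13.6 ± 7.96 to 56.5 ± 7.46 normalized counts. SERPING1, the C1 inhibitor, fell from 167 ± 9.34 to 98.5 ± 10.2 (log2 fold change -0.76, adjusted p = 8.27e-06, edgeR). SERPINI1, neuroserpin, an inhibitor of tissue plasminogen activator, had 15, 9 and 21 counts in WT and 11, 11 and 8 in GFI1-KO and was not called (adjusted p = 0.0991, edgeR), except without WT replicate 2 (-0.98). Among 4 tested proteases that activate pro-urokinase or plasminogen, cathepsin B (CTSB) was called higher, at 0.35. Coagulation factor XII (F12) was not called (-0.01) but was called lower with the GC correction (-0.76, adjusted p = 1.64e-07, edgeR). Of 6 tested clearance receptors and adaptors, 2 were higher and 2 lower. LRP1, the endocytic receptor that clears activator and serpin complexes, rose from 346 ± 34.5 to 781 ± 46.1 (1.17, adjusted p = 9.56e-14, edgeR). Its chaperone LRPAP1 was lower, from 1269 ± 80.5 to 752 ± 16.8, and so was the sorting receptor SORL1, at -0.63.

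Genes whose products bind fibronectin were more often higher than lower. Of 28 listed, 22 passed the filter, 16 of which were higher (72.7%) and 3 lower (13.6%), beside 36.5% and 35.9% of all tested genes. The list's median log2 fold change was 0.97, beside a median below 0.01 for all tested genes. After the GC correction 17 were called higher and 3 lower. All 4 tested syndecans were higher, led by SDC4, a co-receptor for fibronectin, from 625 ± 69.7 to 3059 ± 98.7 normalized counts (log2 fold change 2.29, adjusted p = 1.94e-22, edgeR). The call of SDC2 (0.43) was lost with DESeq2 (adjusted p = 0.0857) and without WT replicate 3 (0.26, adjusted p = 0.144, edgeR).

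Of the 8 tested integrin subunits, 5 were higher and 1 lower, or 7 and 0 with the GC correction. ITGA5, the alpha subunit of the classical fibronectin receptor, rose from 616 ± 23.6 to 1497 ± 84.9 (1.28, adjusted p = 4.85e-17, edgeR). Its partner ITGB1 was called lower by a small margin, from 4488 ± 24.0 to 4158 ± 80.7 (-0.11), and was higher (0.41) with the GC correction. ITGB5 and ITGB8, which pair with ITGAV, were higher at 1.09 and 1.53, and so was ITGB3 at 1.57, although 34.9% of the 50-base words of its transcripts occur in other genes and its counts are uncertain. ITGAV was called higher at 0.12 and stood at 0.77 with the GC correction, and its call was lost without WT replicate 2 (0.08, adjusted p = 0.0779) or GFI1-KO replicate 1 (0.09, adjusted p = 0.0588) in the same edgeR test.

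Among 10 tested matrix proteins that bind fibronectin, 7 were higher and 2 lower, or 6 and 3 with the GC correction. The collagen VI chains COL6A3 and COL6A1 rose by 1.79 and 1.71 on the log2 scale (COL6A1 by 1.08 with the GC correction), and tenascin C (TNC), a matrix protein that modulates adhesion to fibronectin, by 1.67. In the other direction, thrombospondin 1 (THBS1) fell from 7447 ± 35.3 to 1879 ± 12.8 normalized counts (-1.99, adjusted p = 1.95e-25, edgeR). Fibulin 2 (FBLN2), a partner in elastic fibres and basement membranes, fell from 214 ± 11.7 to 51.1 ± 3.47 (-2.06, adjusted p = 3.49e-13, edgeR). Fibulin 1 (FBLN1), called higher at 0.14, was lower (-0.31) with the GC correction and not called without WT replicate 2 (0.10, adjusted p = 0.0701, edgeR).

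**Figure D5:**
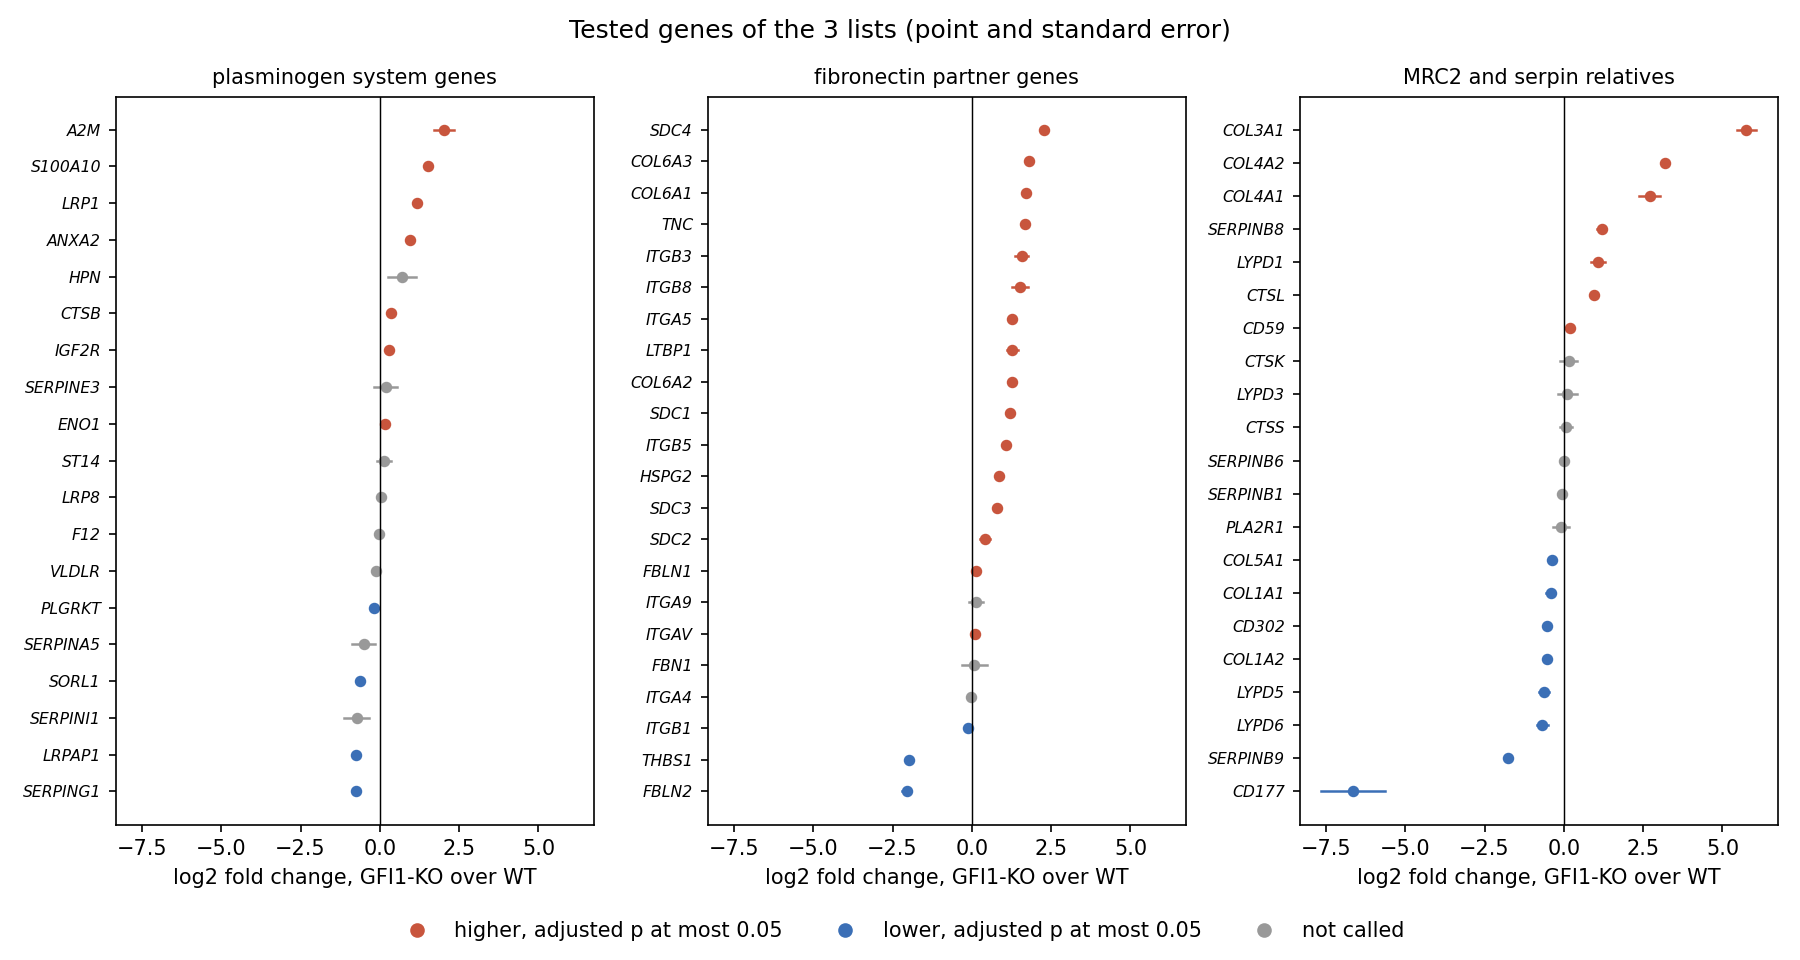
Log2 fold change (GFI1-KO over WT) with its standard error for the tested genes of the 3 lists, coloured by call (adjusted p of at most 0.05, edgeR). Most fibronectin partners lie to the right of 0, with THBS1 and FBLN2 far to the left and ITGB1 and ITGA4 just left of 0, whereas the other lists spread to both sides. The value of CD177 depends on the prior count because GFI1-KO had 0 counts, and 22.1% of its 50-base words occur in other genes. For ITGA4 that share is 25.9%.

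The third list held 33 relatives of MRC2, of SERPINB2 and of the urokinase receptor and the collagens and cathepsins linked to MRC2. Of 21 tested, 7 were higher (33.3%) and 8 lower (38.1%), beside 36.5% and 35.9% of all tested genes, and the median was 0.01. No other mannose receptor gene was stably called. MRC1 had 0 counts in all libraries, LY75 had at most 1 (57.4% of its 50-base words occur in other genes), PLA2R1 was not called (-0.09, adjusted p = 0.743, edgeR) and CD302 was called lower (-0.53) but was at 0.11 with the GC correction, and 71.0% of its 50-base words occur in other genes.

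The collagens that MRC2 can take up were split. COL4A2, a basement membrane chain, rose from 58.6 ± 16.8 to 541 ± 36.8 normalized counts (3.20, adjusted p = 4.24e-18, edgeR), and its partner COL4A1 from 8.59 ± 5.04 to 55.9 ± 9.44. The fibrillar COL3A1 had 2, 3 and 2 counts in WT and 129, 143 and 170 in GFI1-KO. The more abundant fibrillar chains were lower, COL1A2 from 2912 ± 49.6 to 2008 ± 43.1 (-0.54, adjusted p = 6.02e-13, edgeR) and COL5A1 at -0.37. COL1A1 was also called lower (-0.41), but not with DESeq2 (adjusted p = 0.0842) nor without GFI1-KO replicate 3 (-0.34, adjusted p = 0.0611, edgeR). Of the lysosomal cathepsins, CTSL was higher, from 391 ± 21.1 to 755 ± 31.7 (0.95, adjusted p = 8.88e-13, edgeR), and CTSK and CTSS were not called, although CTSS was called higher with the GC correction (0.52, adjusted p = 0.0168, edgeR).

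Among 12 further clade B serpins, the family of SERPINB2, 5 had 0 counts in all libraries and 4 were tested. SERPINB8, which inhibits furin-like proteases and lies near SERPINB2, rose from 74.4 ± 10.6 to 169.9 ± 17.2 (1.19, adjusted p = 3.32e-08, edgeR). SERPINB9, the granzyme B inhibitor, fell from 603 ± 15.2 to 178 ± 18.8 (-1.76, adjusted p = 2.98e-16, edgeR). The relatives of the urokinase receptor were also divided, with LYPD1 higher (1.09, with 28.6% of its 50-base words in another gene) and LYPD6 (-0.69) and LYPD5 (-0.63) lower. CD59, the complement regulator of the same fold, was higher by 0.19.

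Of 103 genes within 250 kb of the 7 genes, 47 passed the filter. Of these, 21 were higher (44.7%) and 15 lower (31.9%), beside 36.5% and 35.9% of all tested genes, and the median was 0.11. With the GC correction 22 were called higher and 11 lower, and some calls changed direction. The highest were AC080038.1 (5.39) and AC080038.3 (3.73), both on the strand opposite to MRC2. AC080038.1 lies across the start of MRC2 and AC080038.3 within it. Both had few WT counts, and their values were 4.86 and 3.00 with the GC correction and, for AC080038.1, 7.35 without WT replicate 2. The lowest were AC115522.1 near PLAUR, from 15.8 ± 4.70 to 5.06 ± 2.92 normalized counts, and the pseudogene BMS1P4 near PLAU, from 61.0 ± 8.99 to 27.2 ± 4.82. The single tested gene near FN1, ATIC, was lower by a small margin (-0.19).

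The genes whose pattern over the 6 libraries was most like that of each gene were sought among the 11221 protein-coding ones whose mean count reached 100. Likeness was the distance between log2 normalized counts centred on each gene's mean. For FN1 these were DRAP1 (distance 0.116) and PTGS2 (0.139), and for MRC2 they were TNFRSF12A (0.129) and LIF (0.146). For PLAU, which varied more, the nearest were SMAD7 (0.402) and COL9A2 (0.428). PLAUR was closest to FANCE (0.0596) and NRM (0.0757), PLAT to SESN2 (0.106) and SLC27A3 (0.111), and SERPINE2 to TCF25 (0.0703) and CDKN2C (0.0756). SERPINB2 was below the count limit. With 2 groups of 3 libraries, the distance depends mostly on the fold change, which was 2.30 for DRAP1 and 2.29 for FN1 on the log2 scale. Shared regulation was not tested.

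Markers of other cells that make these proteins were read as a check of the cultures. Of 10 fibroblast markers, 6 were tested, 3 higher (COL3A1, PDGFRA and TWIST1, the last at -0.25 with the GC correction) and 3 lower (COL1A1, COL1A2 and PDGFRB), and their summed FPKM was 26.3 to 29.0 in WT and 23.1 to 24.6 in GFI1-KO. DCN was at 0 in all libraries, and LUM, THY1 and FAP had at most 6, 3 and 2 counts. Of 6 endothelial markers, 3 were tested, with CLDN5 higher (2.19, or 1.39 with the GC correction) and PECAM1 lower (-1.12). Their summed FPKM was 3.71 to 4.15 in WT and 2.68 to 2.82 in GFI1-KO, and KDR, VWF and TEK had at most 2 counts. Of 7 markers of macrophages and other blood cells, ITGAM was tested and was not called (-0.28), though it was called lower with the GC correction (-0.50), and the sums were 0.926 to 1.03 and 0.854 to 0.922. In bulk RNA, fewer cells of a type and less RNA per cell cannot be told apart.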

How the data were processed

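RNA-Seq of 3 WT and 3 GFI1-KO libraries of H1155 cells was used. The values the authors deposited are unnormalized counts, 1 per gene and library, and the other deposited values are each gene's start, end and length in bases from the authors' annotation. According to the methods, reads were aligned to GRCh38/hg38 with Hisat2 and counted with featureCounts, whereas the submitters' processing notes name Bowtie2 and HTSeq. The strand setting and the rule for reads with several matches are not given in the sources used here. No column of another sample was present.

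Differential expression was tested with edgeR 4.0.16 (R 4.3.3) (TMM, filterByExpr, quasi-likelihood F test), with Benjamini-Hochberg adjustment over 17514 genes, at an adjusted p of at most 0.05. To normalize, each count was divided by its library's TMM effective size and multiplied by the mean of these sizes. Standard errors are the absolute log2 fold change over the root of F. Chi-square per gene between libraries of a group was 1.82 to 4.10, where sampling noise alone gives about 1, so no library was a copy. Library totals (14882914 to 17692882) limit the precision of low genes, and PCR copies are not independent molecules.

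The genes and lists were chosen with earlier results of these data known. A few genes of the lists are not reported here. Named genes were the 7 genes, GFI1, tested genes of the 3 lists (at least the 3 highest and lowest called with a mean of at least 100 counts, SERPINI1 always), the 2 highest and 2 lowest called neighbours, and the 2 genes most like each. The marker genes and ATIC were named outside this rule, after their values were seen. Of the 58735 identifiers, 58207 were in GENCODE release 44, from which GC content and 50-base words were taken. The share of words found in other genes was computed for the 7 genes and the genes of the 3 lists. Where it is over 10% for one of these that is named, its counts are uncertain and the share is given. It was not computed for GFI1, nor for neighbours, markers and most alike genes outside the lists, whose counts were not checked in this way.

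The alternatives were DESeq2 1.42.0, limma-voom (limma 3.58.1), scaling by upper quartile, by median of ratios or by library size, no filter, at least 10 counts in every library, the replicate number as a block, offsets for GC content and length (natural splines with 5 degrees of freedom), each library left out and an adjusted p of at most 0.01. The steps were tested on simulated data. Figures were drawn with matplotlib 3.10.9 in Python 3.11.15.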

Additional observations from a re-analysis of the deposited data

How the results depend on the processing

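The log2 fold change of GFI1 (0.31) was no longer past the threshold with DESeq2 (0.31) or upper-quartile factors (0.27), reversed to -0.02 with the GC content and length correction and to -0.01 with that correction and the replicate block, and ranged from 0.21 to 0.43 when 1 library was left out. The counts of called genes in the 3 lists and near the 7 genes stayed within 1.5 times their value under all 17 alternatives. These totals do not show calls that changed direction with the GC correction, such as those of ITGB1, FBLN1 and some genes near the 7. None of the 7 genes changed direction under an alternative, and of 111 refitted values 99 moved by less than the spread between replicates. The 12 others were those of FN1, MRC2, PLAUR, PLAT and SERPINE2 with the GC correction and of SERPINB2 with DESeq2 (6.42) and limma-voom (4.97), whose fit depends on the prior count, and SERPINB2 had no value with at least 10 counts in every library. The replicate numbers did not pair the libraries, since deviations of same-numbered libraries correlated at -0.00356, 0.0164 and 0.0238, and a fit with the replicate block gave 0.32 for GFI1 and 10 calls in the plasminogen list in place of 11. The depth limits what can be said of genes under about 10 counts, such as PLG and the clade B serpins that were not tested.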
